A study of Mus musculus with 6 samples.

Results

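The genes examined here mark Schwann cells and nerve fibres, the small neural component of the pancreatic islet. They are Sox10, Mbp, Ngfr, Erbb3, Prph and Ncmap, chosen by gene symbol as markers of peri-islet Schwann cells and nerve, and all 6 were found among the 18437 genes of the deposited table. Islets were isolated from male mice aged 30 weeks, flash frozen, and profiled by RNA sequencing. The groups were Sec16b+/+ (wild type, 3 libraries) and Sec16b-/- (knockout, 3 libraries), with no treatment named in the labels. Sec16b encodes a protein of endoplasmic reticulum exit sites, and the design compares islet transcripts with and without it. The labels do not say how the allele was made, and they do not tie libraries to animals; p-values therefore describe the spread between these samples, which may be technical.

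Islets are wrapped by a sheath of glial cells, the peri-islet Schwann cells, and receive sympathetic, parasympathetic and sensory nerve fibres. Schwann cells depend on the transcription factor Sox10 throughout life and on neuregulin signals received through the paired receptors Erbb2 and Erbb3. Those that wrap single large axons make myelin, built from proteins such as myelin basic protein (Mbp), whereas the others, and Schwann cells after injury, carry the low-affinity neurotrophin receptor Ngfr. Neuron cell bodies of pancreatic ganglia can come along with isolated islets, and peripherin (Prph) is an intermediate filament of such peripheral neurons.

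Values are normalized counts, that is, read counts scaled by the authors with 1 size factor for each library, and a value is close to a number of reads. A set of 3 values followed by its genotype gives replicates 1, 2 and 3 in that order. Recovered reads numbered between 22071895 and 26806787 per library. Sec16b itself was at 1655, 773 and 1786 (wild type) and 553, 433 and 750 (knockout). The insulin genes Ins1 and Ins2 took between 8.27% and 13.3% of reads, so islet endocrine RNA was abundant in every library. Digestive enzyme and other acinar genes took between 0.747% and 16.4%, with the highest share in knockout replicate 1. In bulk RNA, fewer cells of a type and less RNA per cell cannot be told apart. Differences between genotypes were tested with limma on log2(value + 1) over the 16042 genes that reached a value of 10 in 3 or more libraries, with Benjamini-Hochberg adjustment at 0.05. Limma called 0% of the genes tested (lowest adjusted p = 0.993), and 494 genes (3.08%) had an unadjusted p under 0.05, 276 of them higher and 218 lower in knockout libraries (1.72% and 1.36% of the genes tested). The edgeR test also called 0, with 509 at an unadjusted p under 0.05, and DESeq2 called 12.

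Between genotypes, none of the 6 genes passed limma's test (adjusted p = 0.993 for each). Sox10, Ngfr, Prph and Ncmap had lower means in the knockout libraries, and Mbp and Erbb3 higher means. Erbb3 was the single one whose groups did not overlap, and groups stood apart in 9.08% of all genes tested. The 6 genes did not follow one pattern across the libraries. Sox10, Ngfr and Prph were highest in wild type replicate 1 and lowest in knockout replicate 3, Mbp and Ncmap were nearly level, and Erbb3 was highest in knockout replicate 1. Values of Mbp, Ncmap and Erbb3 did not rise and fall with Sox10, which rests on between 2 and 30 reads per library. The 6 genes are therefore not read here as the level of a single cell type, and which cells they came from was not tested. Wild type replicate 1 was the highest library for 50% of autonomic and sensory nerve genes and 44.4% of pan-neuronal genes, against 20.5% of all genes tested. This was not particular to nerve genes, as it was also highest for 75% of the lymphocyte genes. For Schwann lineage regulators and myelin genes the shares were 8.33% and 14.3%, and for neuregulin and ErbB genes 7.69%. For non-myelinating and peri-islet Schwann genes and for neurotrophin and receptor genes they were 25% and 30%. For several genes whose fold change rests on wild type replicate 1, the fold change is also given without that library. Ranks of likeness use all 6 libraries only.

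Of the 6 genes, 3 (Ngfr, Prph and Ncmap) matched RefSeq's promoter table for GRCm38.p6 by symbol, and Sox10, Mbp and Erbb3 did not. The 250 bases before the annotated start of Ngfr and Prph are printed because these genes took nearly the same order over the libraries. Ngfr lies on the minus strand (chr11:95587699-95587948) and Prph on the plus strand (chr15:99054924-99055173). Capitals mark matches to the TATA box core TATAAA and to the GC box core GGGCGG on either strand, which do not overlap each other.
Ngfr: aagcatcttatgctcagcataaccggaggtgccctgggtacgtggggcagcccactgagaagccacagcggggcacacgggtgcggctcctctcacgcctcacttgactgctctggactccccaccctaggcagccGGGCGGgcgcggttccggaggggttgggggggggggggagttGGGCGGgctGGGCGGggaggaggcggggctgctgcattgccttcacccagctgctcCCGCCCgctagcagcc
Prph: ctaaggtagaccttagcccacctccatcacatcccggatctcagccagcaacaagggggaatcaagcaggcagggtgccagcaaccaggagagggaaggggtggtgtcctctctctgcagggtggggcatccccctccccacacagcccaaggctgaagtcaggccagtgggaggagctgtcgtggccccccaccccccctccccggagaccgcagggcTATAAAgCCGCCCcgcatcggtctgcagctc
The Prph stretch held 1 TATAAA match, starting 31 bases before the start site, and 1 GGGCGG match, whereas the Ngfr stretch held 0 and 4. Over all 32851 promoter stretches of this length in the table, 12.4% held TATAAA and 32.7% held GGGCGG on either strand. The GC content was 70.4% for Ngfr and 65.2% for Prph, with a mean of 53.2% over the table. The letters describe the stretches and show neither binding nor use of a site. The genome build of the deposited counts is not given in the sources used here.

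Sox10, the transcription factor that defines the Schwann cell lineage, was near the lower end of detection. Its normalized count was 30.1, 15.5 and 8.79 (wild type) and 12.3, 9.37 and 1.99 (knockout). Wild type replicate 1 was the highest library and knockout replicate 3 the lowest, but wild type replicate 3 lay below knockout replicates 1 and 2, so the groups overlapped. These values rest on 30, 16 and 10 reads in wild type and on 10, 10 and 2 reads in knockout libraries. The exact Poisson interval of the last, which covers counting error only, reached from 0.242 to 7.22 reads. Only 3 libraries (wild type replicates 1 and 2 and knockout replicate 1) held a value of 10 or more, the fewest that the filter admits.

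Sox10 means were 18.1 ± 10.9 (wild type; SD, n = 3) and 7.88 ± 5.30 (knockout; SD, n = 3). The log2 fold change, knockout minus wild type, was −1.20 (SE 0.71) on the log2(value + 1) scale. The two-sided exact permutation test of Sox10 alone gave p = 0.3, where 3 libraries against 3 cannot go below 0.1. The log2 fold change was −0.77 with wild type replicate 1 left out and −0.55 with knockout replicate 3 left out. The ratio of wild type replicate 1 to knockout replicate 3 was 15.1, with a counting interval from 3.83 to 130.3.

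Ngfr, the receptor that binds neurotrophins with low affinity and marks Schwann cells without myelin, followed Sox10 closely. Its normalized count was 126, 43.6 and 30.8 (wild type) and 54.0, 23.4 and 13.0 (knockout). Again wild type replicate 1 was highest and knockout replicate 3 lowest, and knockout replicate 1 lay above wild type replicates 2 and 3. Means were 66.9 ± 51.9 (SD, n = 3) and 30.1 ± 21.3 (SD, n = 3). The log2 fold change was −1.09 (SE 0.68), with p = 0.3 by exact permutation.

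Within the wild type group alone, Ngfr was 2.90-fold higher in replicate 1 than in replicate 2 (counting interval 2.05 to 4.17) and 4.10-fold higher than in replicate 3 (2.80 to 6.15). Leaving out wild type replicate 1 gave a log2 fold change between genotypes of −0.50, and leaving out knockout replicate 1 gave −1.61. Likeness of pattern was measured as the root-mean-square difference of log2(value + 1) over the 6 libraries, after each gene was centred on its own mean. Genes were not scaled to a common spread, so the ranks mix the size of the spread with its shape. By this measure the gene most like Sox10 among all those tested was Ngfr, at 0.35, followed by Fkbp10 and Pvt1, both at 0.41. From the side of Ngfr, Sox10 ranked 4th, after Scube1 (0.26), Slit2 (0.32) and Begain (0.34). Over 16042 genes and only 6 libraries, close matches arise readily, and all 6 values share the same libraries and depth.

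Prph, the peripheral neuron filament peripherin, varied most of the 6. Its normalized count was 369.9, 15.5 and 68.6 (wild type) and 84.7, 6.56 and 3.99 (knockout). Wild type replicate 1 exceeded every other library, while knockout replicate 1 was above wild type replicates 2 and 3, so the groups overlapped. The ratio of wild type replicate 1 to the other libraries ran from 4.37 (counting interval 3.37 to 5.74) for knockout replicate 1 to 92.8 (35.9 to 342) for knockout replicate 3, which held 4 reads. Of the genes tested, 55 (0.343%) had a ratio of highest to lowest library as large as that of Prph, and 41 of these were highest in wild type replicate 1.

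Prph means were 151 ± 191 (wild type; SD, n = 3) and 31.7 ± 45.9 (knockout; SD, n = 3), so the SD exceeded the mean in each group. Its log2 fold change of −2.35 (SE 1.42) was the most negative of all 16042 genes tested, yet the exact permutation test gave p = 0.3. Without wild type replicate 1 it was −1.20, and without knockout replicate 1 it was −3.62. The genes most like Prph were Slc10a4, an orphan member of the bile acid transporter family (0.41), Nos1, the neuronal nitric oxide synthase (0.49), and Stum (0.49). Nos1 was at 422, 25.2 and 84.4 (wild type) and 123.9, 12.2 and 15.0 (knockout). Ngfr ranked 35th and Sox10 75th in likeness to Prph, at 1.35 and 1.53, and their ratios of highest to lowest library were 9.75 and 15.1.

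**Figure D1:**
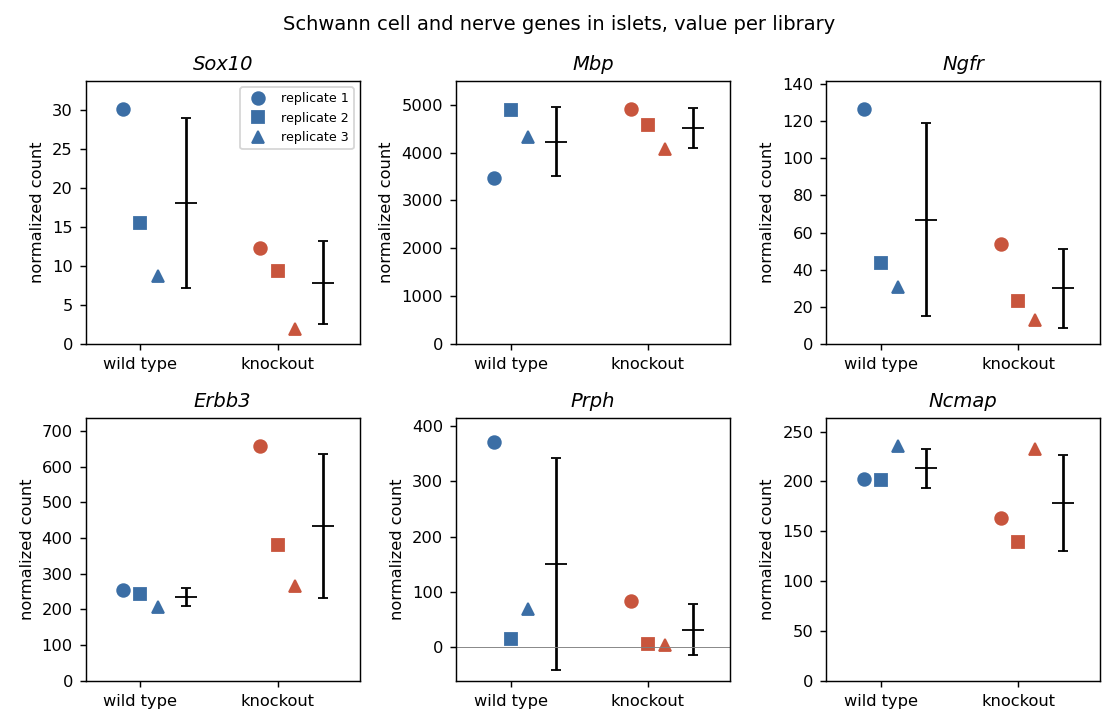
Normalized count of each of the 6 genes (vertical axes, from 0 except where an error bar runs below it) in 3 wild type libraries (blue) and 3 knockout libraries (red), with the replicate number as symbol and the mean ± SD in black. Sox10, Ngfr and Prph are highest in wild type replicate 1, at 30.1, 126 and 369.9, and only Erbb3 has groups that do not overlap.

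The other intermediate filament genes of nerve and glia held some that peaked with Prph and some that did not. Nefl, the light neurofilament subunit that assembles with peripherin, was at 117, 0.968 and 14.9 (wild type) and 22.1, 1.87 and 1.99 (knockout). Like Prph, it was highest in wild type replicate 1 and next in knockout replicate 1. Its log2 fold change of −1.41 (SE 1.55) turned to 0.058 without wild type replicate 1. Nefm, the medium subunit, had means of 947 ± 106 (wild type; SD, n = 3) and 745 ± 87.5 (knockout; SD, n = 3). Nefm and Ina, 2 of the 9 filament genes tested, had all knockout libraries below all wild type libraries, against 5.22% of all genes tested.

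Nefm had a log2 fold change of −0.35 (SE 0.13), Nefh, the heavy subunit, −0.54 (SE 0.23), and Ina, alpha-internexin, −0.19 (SE 0.090). Nes, the filament of progenitor and some endothelial cells, had the largest value of this list, 0.15 (SE 0.76), which was −0.60 without knockout replicate 1. Of the 9 filament genes tested, 4 had higher and 5 lower fold changes, with a median of −0.19 against −0.0030 over all genes, and 0 passed the adjusted threshold. In 4 of the 9, or 44.4%, wild type replicate 1 was the highest library, and the share over all genes tested was 20.5%.

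Genes of autonomic and sensory nerve were likewise most often highest in wild type replicate 1, in 6 of the 12 tested. Vip, the vasoactive intestinal peptide of parasympathetic neurons, was at 796, 18.4 and 214 (wild type) and 205, 13.1 and 25.9 (knockout). Slc18a3, the vesicular acetylcholine transporter, was at 114, 2.90 and 16.7 (wild type) and 40.5, 2.81 and 3.99 (knockout). Within each genotype both were highest in replicate 1, as Prph was. For Vip, unlike Prph, wild type replicate 3 lay above knockout replicate 1. Their log2 fold changes were −1.80 (SE 1.51) and −1.11 (SE 1.40), and −0.59 and 0.15 without wild type replicate 1.

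Th, the rate-limiting enzyme of catecholamine synthesis, went the other way, with means of 502 ± 145 (wild type; SD, n = 3) and 866 ± 229 (knockout; SD, n = 3) and a log2 fold change of 0.78 (SE 0.27). It was the largest of that list, in which 5 genes had higher and 7 lower fold changes, with a median of −0.16. This median rested on single libraries: omitting wild type replicate 1 gave 0.11 (7 higher, 5 lower), omitting wild type replicate 2 gave −0.49, and omitting knockout replicate 1 gave −0.70. Phox2a, Dbh and Chat, further markers of autonomic neurons, were not analysed here. The table holds genes with at least 1 read in every library, so genes silent in any one library were not analysed here either.

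Pan-neuronal genes, several of which endocrine cells also express, had 7 higher and 11 lower fold changes among 18 tested, with a median of −0.25. Omitting wild type replicate 1 gave a median of −0.037, and omitting knockout replicate 2 gave −0.075. Stmn2, a tubulin regulator of growing axons, was at 404, 13.6 and 65.1 (wild type) and 115, 13.1 and 27.9 (knockout). Its log2 fold change was −1.01 (SE 1.28), the smallest of the list, and 0.22 without wild type replicate 1. Gap43, a growth cone protein, had −0.48 (SE 0.52), and 0.084 without that library. Uchl1, a ubiquitin hydrolase shared by neurons and endocrine cells, had −0.58 (SE 0.20), and −0.38 without wild type replicate 1. All its knockout libraries lay below all wild type libraries, as was the case for 5.22% of all genes tested. Tubb3, the neuronal beta-tubulin, had −0.34 (SE 0.23), and Rbfox3, the neuronal splicing factor NeuN, 0.94 (SE 0.45). Rbfox3 was at 39.1, 37.8 and 45.7 (wild type) and 54.0, 162 and 55.8 (knockout), and its log2 fold change was 0.42 without knockout replicate 2. All its knockout libraries lay above all wild type libraries, as was the case for 3.85% of all genes tested. In 8 of the 18, or 44.4%, wild type replicate 1 was highest, and 0 passed the adjusted threshold.

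**Figure D2:**
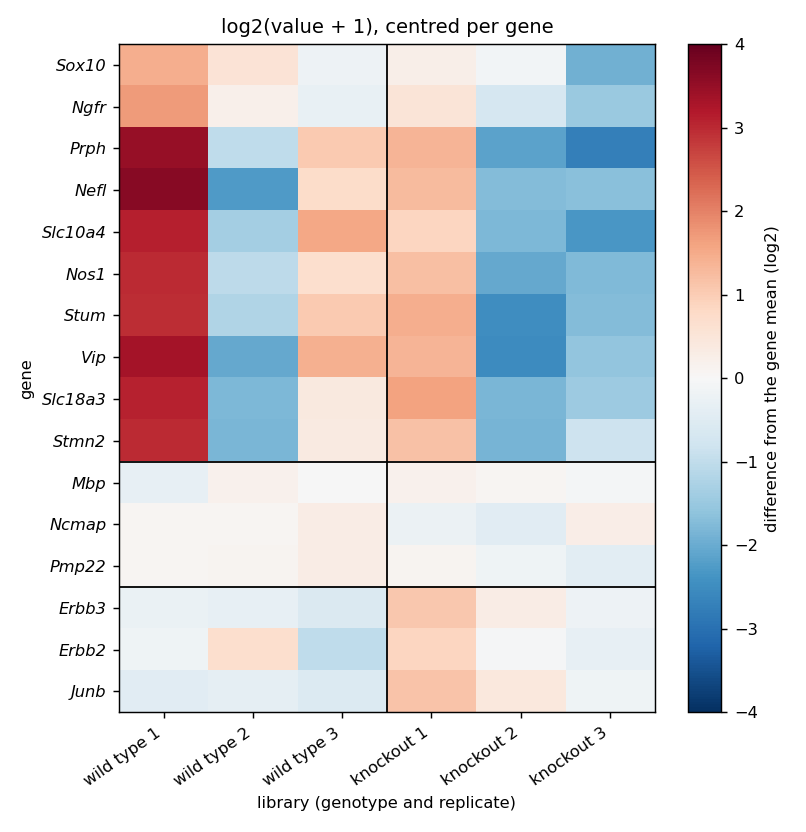
Heat map of log2(value + 1) for 16 genes (rows) in the 6 libraries (columns), each gene centred on its own mean, with red above and blue below that mean (scale from −4 to 4). The upper block with Sox10, Ngfr, Prph and neuronal genes is reddest in wild type replicate 1, and its lowest library is knockout replicate 2 or 3 for each gene except Nefl (wild type replicate 2), while Mbp, Ncmap and Pmp22 stay near 0. The rows were picked, and Slc10a4, Nos1 and Stum are there as the genes most like Prph, so their shared peak follows from that choice. Th, Nefm, Tubb3 and Rbfox3, from the same nerve lists, are not shown and were not highest in wild type replicate 1.

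Mbp, the basic protein that compacts myelin, was the most abundant of the 6 and the most even. Its normalized count was 3458, 4897 and 4315 (wild type) and 4903, 4571 and 4073 (knockout). Wild type replicate 1, the highest library for Sox10, was the lowest for Mbp, and the groups overlapped. Means were 4223 ± 723 (SD, n = 3) and 4516 ± 418 (SD, n = 3), a log2 fold change of 0.11 (SE 0.15). The exact permutation test gave p = 0.6, and without wild type replicate 1 the log2 fold change was −0.030. The Mbp locus also makes Golli transcripts, which share exons with Mbp and occur outside myelin, and counts per gene do not separate the forms.

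Per kilobase of merged exons (GENCODE M21, used here only for lengths), Mbp had a mean level of 516 normalized counts over the 6 libraries. The next was Ncmap at 87.9, followed by Erbb3 at 55.6, Prph at 45.8, Ngfr at 14.1 and Sox10 at 4.26. Library by library, Mbp (408 to 579 per kilobase) lay above every other gene of the 6. Ncmap (62.7 to 106) and Erbb3 (34.2 to 109) overlapped, and Prph (1.99 to 185) spanned the range of Ncmap, Erbb3 and Ngfr. Ngfr (3.76 to 36.7) and Sox10 (0.653 to 9.86) overlapped as well. Pmp22, another myelin gene, stood at 93.2 per kilobase.

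Ncmap, a small membrane protein of the Schwann cell at the myelin's non-compact regions, was also even across libraries. Its normalized count was 202, 201 and 236 (wild type) and 163, 139.6 and 232 (knockout). Knockout replicate 3, the lowest library for Sox10, Ngfr and Prph, was the second highest for Ncmap. Means were 213 ± 19.5 (SD, n = 3) and 178 ± 48.1 (SD, n = 3), a log2 fold change of −0.29 (SE 0.22) with p = 0.3 by exact permutation. The genes most like Ncmap, between 0.0404 and 0.0409, were Gpr158, an orphan receptor, Cntn1, a neural adhesion protein, and Cbx2, a Polycomb protein. Those most like Mbp, between 0.0467 and 0.0502, were Gm6493, Gab2, a signalling adaptor, and Tent4a, a poly(A) polymerase. In likeness to Sox10, Mbp ranked 8694th and Ncmap 11420th.

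Other myelin genes had fold changes on both sides of 0. Pmp22, a compact myelin protein also made by many other cells, had means of 243 ± 20.4 (wild type; SD, n = 3) and 196 ± 36.4 (knockout; SD, n = 3), a log2 fold change of −0.33 (SE 0.19). Cnp, a phosphodiesterase of myelinating glia, was at 1038 in wild type replicate 1 and between 235 and 606 in the others, with −0.12 (SE 0.55), and 0.49 without wild type replicate 1. Mal, a raft protein, had the largest value, 0.86 (SE 0.54), and Hapln2, a link protein of the node, the smallest, −0.42 (SE 0.52). Of 14 myelin genes tested, 7 had higher and 7 lower fold changes, with a median of 0.025, and 0 passed. In 1 of the 14, Sh3tc2, all knockout libraries lay above all wild type libraries, against 3.85% of all genes tested. With 1 library left out the median ran from −0.026 to 0.091. Mag was not analysed here.

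Among the 12 regulators of the Schwann lineage tested, Sox10 was the single one highest in wild type replicate 1. Egr2, the factor that drives myelination and also an immediate early gene, was at 63.2, 25.2 and 22.9 (wild type) and 96.9, 82.4 and 19.9 (knockout), a log2 fold change of 0.70 (SE 0.69). For Egr2 it was 0.29 without knockout replicate 1 and 0.28 with the mean acinar level as covariate. Jun, a factor of repair Schwann cells that is induced in many cell types, had the largest fold change of the list, 0.85 (SE 0.41), and 0.43 without knockout replicate 1. Of 12 regulators, 8 had higher and 4 lower fold changes, with a median of 0.31 and 0 called. The median ran from 0.16 (without knockout replicate 1) to 0.37 with 1 library left out. Foxd3, Sox2 and Tfap2a were not analysed here.

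Among 16 genes of non-myelinating and peri-islet Schwann cells, 10 had higher and 6 lower fold changes, with a median of 0.15 and 0 called. Its direction depended on single libraries: omitting wild type replicate 1 gave −0.039, knockout replicate 1 gave −0.0026 and knockout replicate 2 gave −0.068, while omitting wild type replicate 3 gave 0.043. Over the 8 genes left by a filter at a value of 50, the median was −0.095, and with quantile scaling 8 of the 16 were higher and 8 lower. L1cam and Matn2, an axon adhesion protein and a matrix protein of nerve, each had all knockout libraries below all wild type libraries, 2 of the 16 genes, as was the case for 5.22% of all genes tested. L1cam was at 277 ± 59.0 (wild type; SD, n = 3) and 179 ± 23.6 (knockout; SD, n = 3), with a log2 fold change of −0.62 (SE 0.21). Matn2 had the same log2 fold change of −0.62 (SE 0.18). Nrn1, an activity-regulated neuritin, had the largest value, 0.74 (SE 1.03), and −0.094 without knockout replicate 1, and Ngfr had the smallest. The glial filament gene Gfap had 22.1 in wild type replicate 1 and between 2.81 and 8.59 in the other libraries, and it fell below the filter. S100b and Cdh19 were not analysed here.

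Markers of other cells that can carry some of these genes are given by their summed normalized counts. For oligodendrocytes, which express Sox10 and Mbp in the brain, the defining genes Olig1, Olig2, Mog and Mobp were not analysed here. The summed level of the 5 others ran from 2856 to 3242 in wild type and from 2104 to 3002 in knockout libraries. Most of this sum was Nkx2-2 in every library, with 2449, 2554 and 2858 (wild type) and 1502, 1885 and 2662 (knockout), so it does not measure oligodendrocytes. For melanocytes, which express Sox10 and Erbb3, Tyr, Tyrp1 and Mlana were not analysed here. The 5 others summed to between 438 and 1219 in wild type and between 529 and 804 in knockout libraries. Of these, Gpnmb alone was at 761, 31.0 and 752 (wild type) and 234, 278 and 39.9 (knockout), so this sum does not measure melanocytes either. The 8 lymphocyte genes summed to 24647, 326 and 810 (wild type) and 145411, 10915 and 7350 (knockout). Within each genotype this sum was thus highest in replicate 1, as Prph was. All 8 genes had higher fold changes, with a median log2 fold change of 1.99 (0.13 with edgeR), whereas that of Prph was −2.35. Gene by gene, 6 of the 8 (75%) were highest in wild type replicate 1, against 20.5% of all genes tested. The part of lymphocytes in these results was not tested. The 19 stellate cell, pericyte and fibroblast genes, a group that can express Ngfr, summed to 6277, 9665 and 6281 (wild type) and 8329, 7622 and 4668 (knockout). This sum was highest in wild type replicate 2. Gene by gene, 8 of the 19 were highest in knockout replicate 1, 7 in wild type replicate 2 and 2 in wild type replicate 1. The part of these cells in the Ngfr values was not tested.

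Erbb3, the neuregulin receptor that Schwann cells need and that many epithelial cells also carry, had higher values in all knockout libraries than in any wild type library. Its normalized count was 256, 244 and 206 (wild type) and 658, 379 and 265 (knockout). The lowest knockout library exceeded the highest wild type library by a small margin, 265 against 256, and knockout replicate 1 carried most of the difference. Means were 235 ± 26.1 (SD, n = 3) and 434 ± 202 (SD, n = 3), a log2 fold change of 0.79 (SE 0.32), or 1.72-fold. The exact permutation test gave p = 0.1, the smallest value possible, and limma's adjusted p was 0.993. Its unadjusted limma p was 0.0452, and 1.72% of all genes tested were higher in knockout at an unadjusted p under 0.05. Groups stood apart with knockout higher in 3.85% of them.

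Erbb3 was highest in the library with most acinar RNA. The 20 acinar genes took 5.49%, 1.19% and 3.37% (wild type) and 16.4%, 8.02% and 0.747% (knockout) of reads. Knockout replicates 1 and 2 were the first and second highest in both, whereas knockout replicate 3 had the lowest acinar share and an Erbb3 value just above the wild type range. With the mean acinar level as covariate the log2 fold change was 0.61, and without knockout replicate 1 it was 0.44. The 13 duct genes, of another epithelial cell type, summed to between 64128 and 86796 in wild type and to 99407, 86340 and 53656 in knockout replicates 1, 2 and 3. The part of these cells in the Erbb3 values was not tested.

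The genes most like Erbb3 were Junb, an immediate early AP-1 factor (0.09), Csrnp1, another immediate early factor (0.11), and Aph1c, a gamma-secretase subunit (0.11). Junb was at 3765, 3987 and 3514 (wild type) and 11358, 6873 and 4549 (knockout), so its groups did not overlap either. In likeness to Erbb3, Sox10 ranked 15501st and Ngfr 15404th among the genes tested. These ranks reflect spread as well as shape, as the SD of log2(value + 1) over the libraries was 0.61 for Erbb3, 1.11 for Sox10 and 1.09 for Ngfr.

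**Figure D3:**
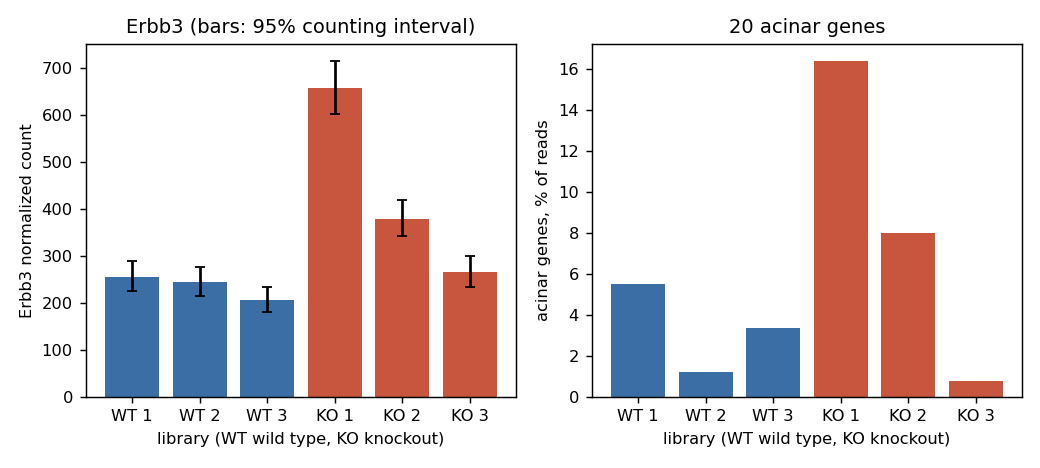
Left, Erbb3 normalized count per library with exact 95% Poisson intervals, which cover counting error only. Right, percent of reads from 20 acinar genes in the same libraries, with wild type (WT) in blue and knockout (KO) in red; knockout replicate 1 is highest in both, at 658 and 16.4%, and knockout replicate 3 has 265 and 0.747%.

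Erbb2, the partner through which Erbb3 signals, was at 62.2, 112 and 34.3 (wild type) and 128, 67.4 and 55.8 (knockout), and the groups overlapped. Its log2 fold change was 0.33 (SE 0.50), and −0.092 without wild type replicate 3. Nrg1, the axonal ligand, had 0.27 (SE 0.58), and −0.31 without wild type replicate 3. Egfr, the related receptor, had 0.58 (SE 0.19), with means of 696 ± 156 (SD, n = 3) and 1036 ± 179 (SD, n = 3). Erbb4 had the largest value of the list, 1.02 (SE 0.82), at low counts (0.46 without wild type replicate 1), and Bace1, the protease that cleaves neuregulin, the smallest, −0.18 (SE 0.17). Of 13 neuregulin and ErbB genes tested, 8 had higher and 5 lower fold changes, with a median of 0.19, and 0 passed. Omitting wild type replicate 3 gave a median of −0.018, wild type replicate 2 gave 0.078, knockout replicate 1 gave 0.071 and knockout replicate 2 gave 0.011. With the filter at a value of 50 it was 0.045.

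Among the neurotrophin and receptor genes, Ngfr had the smallest log2 fold change. The high-affinity receptor gene Ntrk2 had −0.31 (SE 0.18), and Sort1, sortilin, the co-receptor for proneurotrophins, −0.17 (SE 0.13). Normalized counts of Ntrk2 had means of 3122 ± 485 (wild type; SD, n = 3) and 2540 ± 519 (knockout; SD, n = 3). Of 20 neurotrophin and receptor genes, 6 had higher and 14 lower fold changes, with a median of −0.14, and 0 passed.

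**Figure D4:**
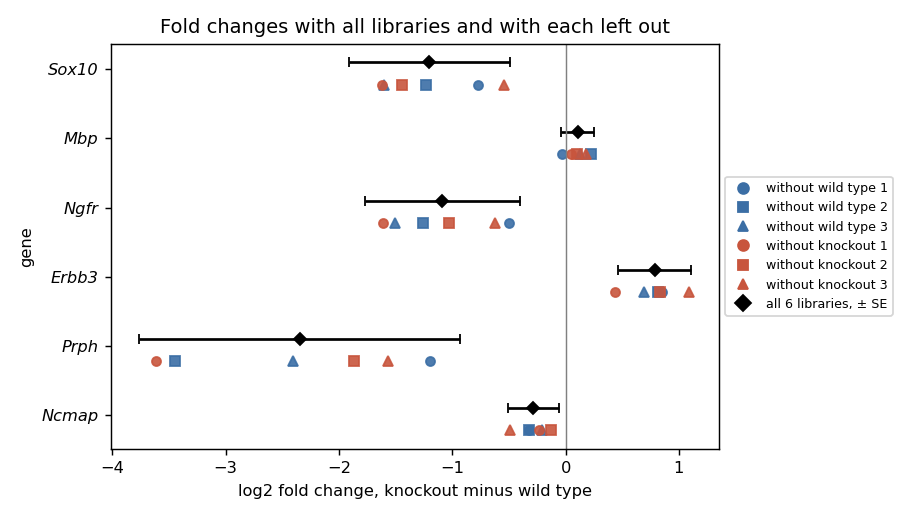
Log2 fold change, knockout minus wild type (horizontal axis), of the 6 genes with all libraries (black diamond, bar ± SE) and with each library left out (coloured symbols). Prph runs from −3.62 to −1.20 and Erbb3 from 0.44 to 1.09 with 1 library left out, and Mbp crosses 0 without wild type replicate 1.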

How the data were processed

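RNA of mouse islets was measured by the authors in 6 libraries, 3 per genotype, grouped and numbered by the sample titles. The aligner was HISAT2, per the submitters' processing notes, and its version, the counting tool, the build and the strandedness were not given in the sources used here. The deposited signal values are gene counts divided by a size factor per library. Within each library, dividing by the lowest step turned 100% of values into whole reads (tolerance 0.01 reads). For wild type replicate 1 and knockout replicate 3 that step lies so near 1 that an automatic check did not accept their values as recovered reads. For these libraries the reads, and the count models run as alternatives, rest on the decimals of the values alone.

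Genes below the filter numbered 2395. Limma 3.58.1 (R 4.3.3, mean-variance trend, two-sided) gave log2 fold changes on log2(value + 1), which understate the change of low genes. EdgeR 4.0.16 and DESeq2 1.42.0 used recovered reads. The limma fit was tested on simulated data, and the closing section lists the alternatives tried. Poisson and ratio intervals are exact, at 95%. No pair of libraries within a group agreed within sampling noise (chi-square per degree of freedom from 49.9 to 284). In GENCODE M21, 0 exon bases of the 6 genes overlapped another gene.

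The 6 genes, the gene lists and the rule for named genes were chosen with earlier results of these data known. The rule took the 6 genes, fixed neighbours in function, the largest and smallest fold change of each nerve list, and the 3 genes most like each of the 6; other cell types are given by summed level. Some of the genes it took are not reported here.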

Additional observations from a re-analysis of the deposited data

How the results depend on the processing

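The 18 alternatives changed the pseudocount (0.5 or 10), the filter (none, or a value of 50 in 3 libraries), the scaling (TMM or quantile), the variance model (no trend, array weights), the tool, a replicate block, an acinar covariate and each library left out. The count of genes called was 0 in 17 of them and 12 with DESeq2 on recovered reads (6 higher, 6 lower, none of them among the 6 genes), and 0 with every library left out in turn. For the 6 genes, 105 of 106 refitted fold changes kept their direction, and none passed. Mbp reversed, and its log2 fold change lay between −0.030 and 0.22 over the fits lacking 1 library. The same range was −1.62 to −0.55 for Sox10, −1.61 to −0.50 for Ngfr, −3.62 to −1.20 for Prph, 0.44 to 1.09 for Erbb3 and −0.49 to −0.13 for Ncmap. With a pseudocount of 10, Sox10 had −0.63 and Prph −1.71. With the acinar covariate, Sox10 had −1.57, Ngfr −1.43 and Prph −3.13, each further from 0 than in the main fit. Their unadjusted limma p-values were 0.0282, 0.0377 and 0.0187, with an adjusted p of 0.998 for each. Erbb3, Ncmap and Mbp, at 0.61, −0.20 and 0.099, lay nearer to 0 than in the main fit. With the stricter filter Sox10 and Ngfr were not tested, and DESeq2 gave no adjusted p for Sox10, Ngfr or Prph.

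With single libraries left out, the range crossed 0 for Cnp (−0.58 to 0.49), Erbb2 (−0.092 to 0.75), Gap43 (−0.90 to 0.084), Nefl (−2.90 to 0.058), Nes (−0.60 to 0.95), Nrg1 (−0.31 to 0.86), Nrn1 (−0.094 to 1.69), Slc18a3 (−2.29 to 0.15) and Stmn2 (−2.18 to 0.22). Other reversals were Nes at −0.24 with the acinar covariate, Cnp at 0.048 with array weights and Nrg1 at −0.0028 with DESeq2; the cause was not tested. Without 1 library, further fold changes moved toward 0 by over 1.5 times and kept their direction, among them Mal (0.49), Hapln2 (−0.13), Tubb3 (−0.10), Bace1 (−0.066), Sort1 (−0.074) and Ntrk2 (−0.15). List medians changed direction for autonomic and sensory (−0.70 to 0.11), non-myelinating Schwann (−0.068 to 0.14), neuregulin and ErbB (−0.018 to 0.18) and myelin genes (−0.026 to 0.091), the last also with the stricter filter (−0.041) and quantile scaling (−0.083). Same-numbered libraries had correlations of their deviations from group means of 0.430, 0.0037 and 0.365 for replicates 1, 2 and 3. Between differently numbered libraries they ran from −0.413 to 0.199. The labels name no pairing, and the main fit used none. Whether the numbers mark pairs or a batch was not tested. With the replicate block the count called was 0, with 864 genes at an unadjusted p under 0.05 against 494 without it. The block leaves fold changes as they are in this balanced design, and SEs changed: the unadjusted limma p went from 0.135 to 0.0366 for Sox10, from 0.156 to 0.0110 for Ngfr, from 0.142 to 0.00785 for Prph and from 0.0452 to 0.0157 for Erbb3, with an adjusted p of 0.837 for each. Wild type replicate 2 correlated best with knockout replicate 3 (0.199). Sox10, Ngfr and Prph in knockout replicate 3 rest on 2, 13 and 4 reads, which limits any fold drawn from it.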
